A study of Homo sapiens with 6 samples.

Results

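The mitosis and G2/M genes described here are 55 genes of cell division, listed by name from what their products are known to do. No measured value entered the rule of the list, but it was drawn up with earlier results of these data known. Shares of the list set beside all genes are therefore descriptions. They were read in RNA-Seq counts from K562, a human cell line established from a chronic myelogenous leukemia. A lentivirus delivered Cas9 with an sgRNA, which was a control in the sgCtrl condition and was directed against N6AMT1 in the sgN6AMT1 condition. N6AMT1 is a methyltransferase that modifies the translation termination factor eRF1. Each condition had 3 libraries, each from its own transduction, and the labels place the harvest at day 10 after infection. Cas9 and a puromycin selection were shared by both conditions, and the sources used here do not tie a library to a single sgRNA. The methods describe no cloning of the selected cells, and Cas9 cutting need not remove an mRNA. The labels list polyA RNA as the molecule, whereas the study's methods describe rRNA depletion of total RNA, and the conflict bears on what a share of counts or a trend with transcript length means. Of the 55 genes, 54 had a row in the table of 19330 genes and 53 were among the 8324 genes with enough counts to be tested. No row was found for SPC24, so it enters the account of promoters alone. UBE2C, the E2 enzyme that works with the anaphase-promoting complex, had 0 counts in 5 libraries and 7 counts in sgN6AMT1 replicate 3, and it was not tested. UBE2C has 5 pseudogene copies (UBE2CP genes) in the GENCODE v44 annotation. How reads that map to several places were counted is not given in the sources used here, and the part of such reads in the UBE2C count was not tested.

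Cells that enter mitosis build up cyclin B and its kinase CDK1, condense their chromosomes, attach each chromosome to spindle microtubules through a kinetochore and hold anaphase back until the attachments are complete. The anaphase-promoting complex with CDC20 then destroys securin and cyclin B, the chromosomes separate and the cell divides. Most genes of this program are transcribed late in the cell cycle, under the MuvB-B-MYB complex, FOXM1 and NF-Y, so that in a growing cell line their mRNA comes mainly from cells in G2 and M. In bulk RNA, fewer cells in G2 and M and less RNA per cell cannot be told apart.

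Values of a condition are listed below in the order of replicates 1, 2 and 3. Total counts were 742470, 866894 and 866155 in sgCtrl and 959319, 5526904 and 4062363 in sgN6AMT1. Levels are given in cpm, the counts of a gene scaled to the library total with TMM factors, and ± after a mean level is the SD over 3 libraries. A count of 0 allows up to 3 counts, which is 0.543 cpm in the deepest library and 4.04 cpm in the shallowest. N6AMT1 itself had 6, 5 and 9 counts in sgCtrl and 0, 18 and 16 counts in sgN6AMT1. Relative to total counts this was 8.08 ± 2.31 cpm in sgCtrl and 2.4 ± 2.1 cpm in sgN6AMT1 (SD, n = 3), and the groups did not overlap. The erythroid markers listed for K562 were all detected (10 of 10), HBG1 most abundantly. CD2, MS4A1, CD79B and KRT5, markers of T cells, B cells and epithelium, had 0 counts in each of the 6 libraries. Summed over each list, markers of T cells stood at 12.8 to 20.8 cpm, of B cells at 0 to 1.09 cpm, of fibroblasts at 16.1 to 22.9 cpm and of epithelium, mainly EPCAM, at 94.3 to 171 cpm.

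Between the conditions, 7 of the 53 tested genes were lower in sgN6AMT1 and 0 were higher (quasi-likelihood test of edgeR, with an adjusted p under 0.05 by Benjamini-Hochberg over 8324 genes). The 7 genes were HMMR, MKI67, CENPE, CDCA8, SPC25, CENPF and SMC2. They made up 13.2% of the tested members, whereas 4.76% of all genes tested were lower and 5.09% were higher. At an unadjusted p under 0.05, 14 members (26.4%) were lower and 4 (7.55%) were higher, against 13.1% and 13.2% of all genes tested. By overlap of the single libraries, 13 members (24.5%) had each sgN6AMT1 library below each sgCtrl library and 4 (7.55%) had the reverse, against 14.1% and 15.1% of all genes tested. The log2 fold changes of the members ran from -0.88 (CENPE) to 0.43 (CDC25C) with a median of -0.094, while the median over all genes tested was 0.0087. By sign, 33 members were negative and 20 positive. The count of lower members depended on single libraries. It was 3 without sgCtrl replicate 1 (HMMR, MKI67 and CENPE) and 1 without sgCtrl replicate 2 (HMMR). It was 4 without sgN6AMT1 replicate 2 (HMMR, CENPE, CDCA8 and SPC25) and 4 without sgN6AMT1 replicate 3 (HMMR, MKI67, CENPE and CDCA8). SMC2 was not called without sgCtrl replicate 3, nor CENPF without sgN6AMT1 replicate 1. Over all genes, 396 of 8324 were lower with the 6 libraries. Leaving out sgCtrl replicates 1, 2 and 3 in turn gave 139 of 8594, 109 of 8651 and 388 of 8626. Leaving out sgN6AMT1 replicates 1, 2 and 3 in turn gave 470 of 8477, 241 of 8456 and 275 of 8449, so the total rose without sgN6AMT1 replicate 1 and fell in the other 5 fits. DESeq2 called 8 members lower, the 7 and TOP2A, and 0 higher, with 337 lower and 293 higher over all genes under its own filtering.

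**Figure D1:**
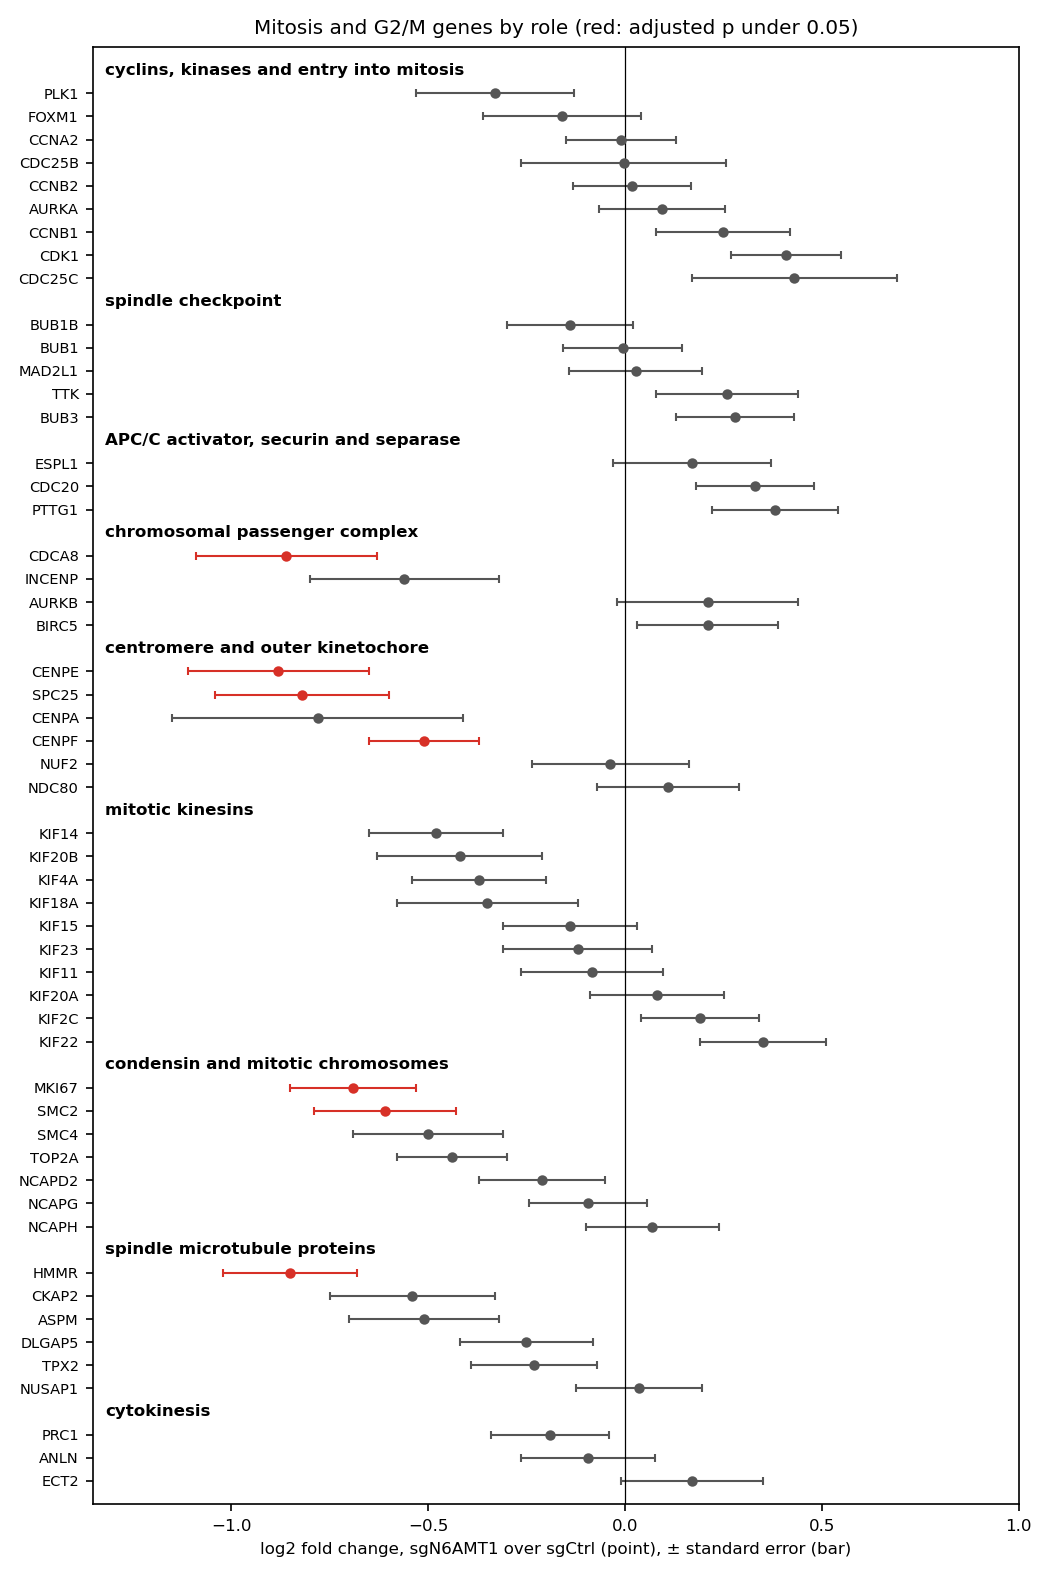
Log2 fold change of sgN6AMT1 over sgCtrl (horizontal axis) for the 53 tested mitosis and G2/M genes, grouped by role, with points for the fitted value and bars for its standard error. The 7 red genes, with an adjusted p under 0.05, lie on the negative side and belong to the passenger complex, the kinetochore, the mitotic chromosomes and the spindle, while the 9 cyclins, kinases and entry genes lie on both sides of 0.

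The cyclins, kinases and other genes of entry into mitosis held 9 tested members, of which 0 were called, with a median log2 fold change of 0.018. CCNB1, which encodes cyclin B1 and had the largest mean cpm of this group (not scaled to length, as for each group below), measured 242, 294 and 403 cpm in sgCtrl and 367, 358 and 391 cpm in sgN6AMT1, with means of 313 ± 82.3 and 372 ± 17.2 cpm. Its sgCtrl libraries were spread more widely than its sgN6AMT1 libraries, and the groups overlapped. Its log2 fold change was 0.25 with a standard error of 0.17 (edgeR adjusted p = 0.371). CDK1, the catalytic partner of cyclin B, was singled out after its values were seen, at 275, 275 and 327 cpm in sgCtrl and 372, 398 and 391 cpm in sgN6AMT1, with means of 292 ± 29.8 and 387 ± 13.4 cpm. The sgN6AMT1 libraries lay above the sgCtrl libraries, and the log2 fold change was 0.41 ± 0.14 (SE) with an edgeR adjusted p of 0.0745. CDC25C, a phosphatase that activates CDK1, was also chosen after its values were seen. It had 20, 22 and 22 counts in sgCtrl, or 26.9, 25.4 and 25.9 cpm, and 40.0, 29.0 and 38.3 cpm in sgN6AMT1. The groups did not overlap, but its log2 fold change of 0.43 came with a standard error of 0.26 and an adjusted p of 0.313 in edgeR. PLK1, which drives centrosome maturation and mitotic entry, had the lowest log2 fold change of the group (-0.33), with an adjusted p of 0.3 in edgeR.

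Among the 5 tested genes of the spindle checkpoint, which holds back anaphase until kinetochores are attached, 0 were called and the log2 fold changes ran from -0.14 to 0.28. BUB3, a checkpoint protein bound at kinetochores and the member of largest mean level here, stood at 200, 208 and 237 cpm in sgCtrl and at 249, 239 and 294 cpm in sgN6AMT1, with means of 215 ± 19.4 and 260 ± 29.1 cpm. Its groups were separated by a narrow gap, and its log2 fold change of 0.28 ± 0.15 (SE) had an adjusted p of 0.25 in edgeR. The gene set that triggers anaphase held 3 tested genes, each with a positive log2 fold change (0.17 to 0.38) and 0 of them called. CDC20, the activator of the anaphase-promoting complex, measured 202, 192 and 233 cpm in sgCtrl and 246, 241 and 298 cpm in sgN6AMT1, with means of 209 ± 21.9 and 262 ± 31.9 cpm. The groups did not overlap, and the log2 fold change of 0.33 ± 0.15 (SE) gave an edgeR adjusted p of 0.178. PTTG1, or securin, the inhibitor of separase, was named after its values were seen, at 145, 177 and 222 cpm in sgCtrl and 244, 220 and 247 cpm in sgN6AMT1, with means of 181 ± 38.5 and 237 ± 15.1 cpm. Its groups overlapped by a single pair of libraries, with a log2 fold change of 0.38 ± 0.16 (SE) and an edgeR adjusted p of 0.144. PTTG1 has 2 close copies (PTTG2 and PTTG3P) with which reads could be shared, so its level is uncertain to that extent.

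The chromosomal passenger complex brings the kinase AURKB to centromeres and to the spindle midzone through INCENP, BIRC5 (survivin) and CDCA8 (borealin). Of its 4 tested members, 1 was lower. CDCA8 (chr1:37692481-37709719, plus strand) measured 155, 151 and 81.3 cpm in sgCtrl and 73.8, 84.3 and 55.3 cpm in sgN6AMT1, with means of 129 ± 41.3 and 71.1 ± 14.7 cpm. Although it passed the test (log2 fold change -0.86 ± 0.23 SE, edgeR adjusted p = 0.024), its groups overlapped, since sgCtrl replicate 3 lay below sgN6AMT1 replicate 2. CDCA8 was lower in 4 of the 6 fits that left out a library. BIRC5, the member with the largest mean level of this complex, stood at 91.4, 87.7 and 105 cpm in sgCtrl and at 101, 99.3 and 126 cpm in sgN6AMT1, with means of 94.7 ± 9.08 and 109 ± 15 cpm. These groups overlapped (log2 fold change 0.21 ± 0.18 SE, edgeR adjusted p = 0.486). INCENP, the scaffold of the complex, was singled out after its values were seen, at 86.0, 70.4 and 47.2 cpm in sgCtrl and 49.5, 52.9 and 36.0 cpm in sgN6AMT1, with means of 67.8 ± 19.5 and 46.1 ± 8.96 cpm. As with CDCA8, sgCtrl replicate 3 was the lowest sgCtrl library and lay among the sgN6AMT1 libraries (log2 fold change -0.56 ± 0.24 SE, edgeR adjusted p = 0.143). The log2 fold change of AURKB was 0.21, and a difference between the subunits was not tested.

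The centromere and outer kinetochore group had the lowest median log2 fold change of the 9 role groups (-0.64), and 3 of its 6 tested members were lower. CENPE, a kinesin motor that links kinetochores to microtubules (chr4:103105349-103198445, minus strand), measured 149, 212 and 159 cpm in sgCtrl and 101, 123 and 59.4 cpm in sgN6AMT1, with means of 174 ± 33.9 and 94.6 ± 32.4 cpm. The groups did not overlap, sgN6AMT1 replicate 3 was the lowest library, and the log2 fold change was -0.88 ± 0.23 (SE) with an edgeR adjusted p of 0.0203. SPC25, a subunit of the NDC80 complex that holds the microtubule end (chr2:168834132-168913371, minus strand), stood at 128, 147 and 100 cpm in sgCtrl and at 86.4, 82.0 and 47.6 cpm in sgN6AMT1, with means of 125 ± 23.3 and 72 ± 21.3 cpm. Here too sgN6AMT1 replicate 3 was lowest and the groups were apart (log2 fold change -0.82 ± 0.22 SE, edgeR adjusted p = 0.0253). CENPF, a large protein of the nuclear matrix and kinetochore (chr1:214603185-214664574, plus strand), was the member of largest mean level in the group, with 387, 423 and 375 cpm in sgCtrl and 278, 307 and 249 cpm in sgN6AMT1, with means of 395 ± 25.3 and 278 ± 29.1 cpm. Its groups were apart as well, with a smaller log2 fold change of -0.51 ± 0.14 (SE) and an edgeR adjusted p of 0.0326. Of the 6 fits that left out a library, CENPE was lower in 5, SPC25 in 3 and CENPF in 1. In the NDC80 complex, to which SPC25 belongs, the log2 fold changes of NDC80 and NUF2 were 0.11 and -0.037, with edgeR adjusted p of 0.736 and 0.934. A difference between the subunits was not tested. CENPA, the histone H3 variant of centromeres, was singled out after its values were seen, and its counts of 8, 19 and 27 in sgCtrl and 8, 61 and 64 in sgN6AMT1 were low. They gave 10.8, 21.9 and 31.8 cpm against 8.43, 11.1 and 16.5 cpm, overlapping groups with a log2 fold change of -0.78 ± 0.37 (SE) and an edgeR adjusted p of 0.193.

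**Figure D2:**
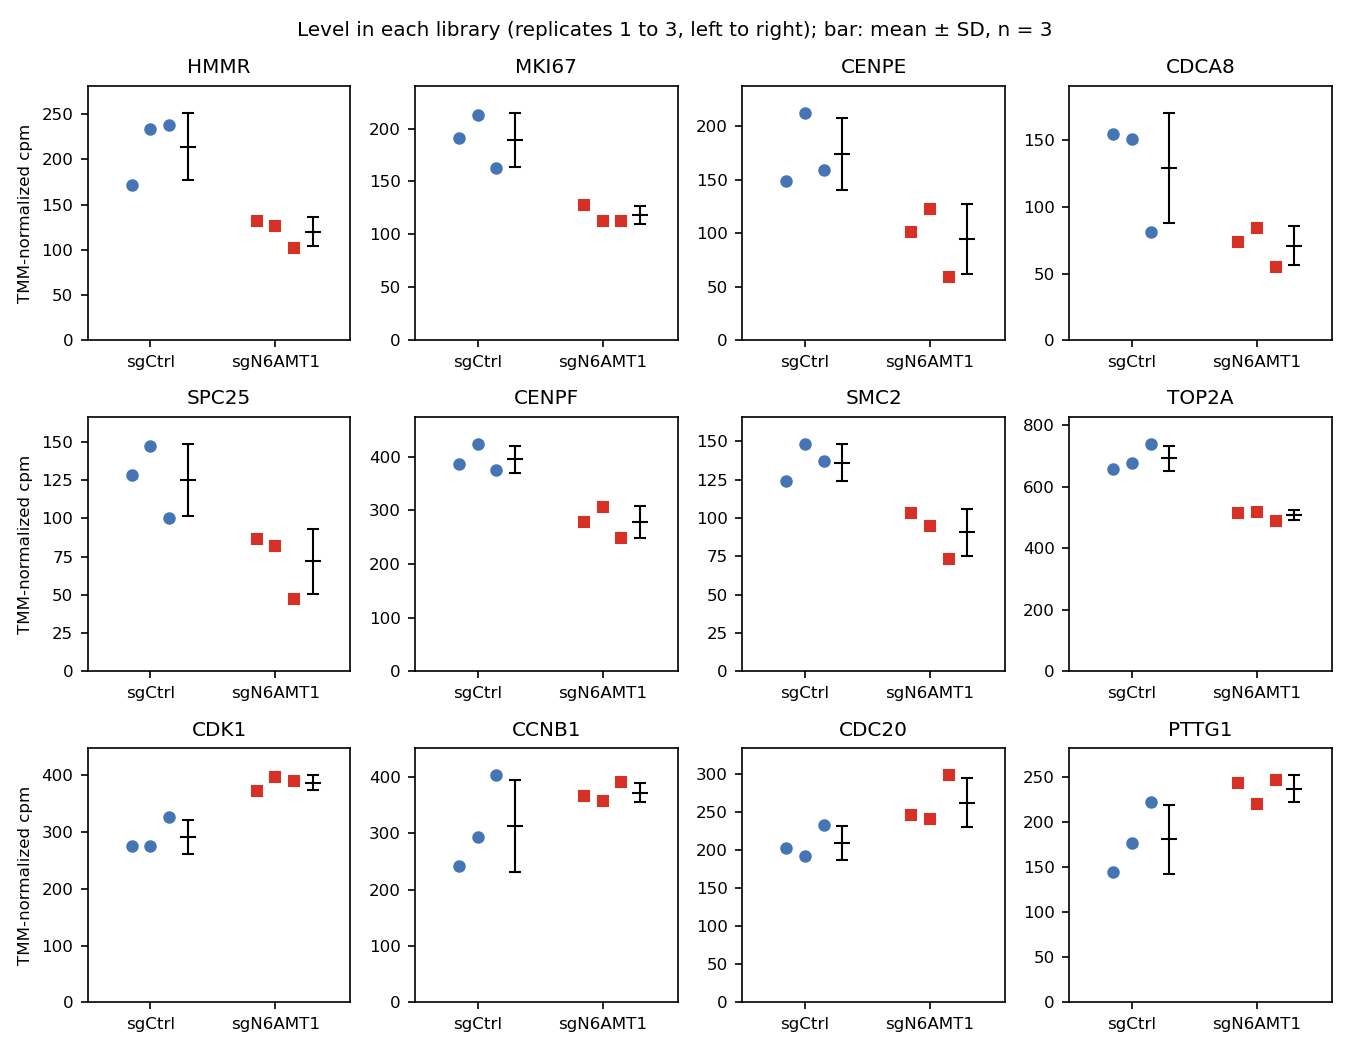
TMM-normalized cpm (vertical axis, from 0) of 12 members in each sgCtrl library (blue circles) and each sgN6AMT1 library (red squares), with the mean ± SD of 3 libraries in black. In the first 8 panels the sgN6AMT1 libraries sit low, apart from the overlap of CDCA8, and in the last 4 panels (CDK1, CCNB1, CDC20 and PTTG1) they sit level with the sgCtrl libraries or above them.

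The mitotic kinesins, motors that build the spindle and move chromosomes along it, had 10 tested members, 0 of them called, with log2 fold changes from -0.48 (KIF14) to 0.35 (KIF22). KIF2C, which takes microtubule ends apart at centromeres and had the largest mean level of the kinesins, measured 243, 265 and 263 cpm in sgCtrl and 294, 263 and 324 cpm in sgN6AMT1, with means of 257 ± 12.1 and 293 ± 30.4 cpm. Its groups overlapped (log2 fold change 0.19 ± 0.15 SE, edgeR adjusted p = 0.439). KIF14, which acts in cytokinesis, was chosen after its values were seen, with 161, 189 and 143 cpm in sgCtrl and 131, 126 and 101 cpm in sgN6AMT1, with means of 164 ± 23.4 and 119 ± 16.2 cpm. The groups were apart, at a log2 fold change of -0.48 ± 0.17 (SE) and an edgeR adjusted p of 0.078.

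Condensin folds chromosomes for mitosis, topoisomerase II untangles them and the Ki-67 protein coats their surface. Of the 7 tested genes of this group, 2 were lower. The log2 fold change was negative in 6 of them, and the median was -0.44. MKI67, the proliferation marker Ki-67 (chr10:128096659-128126423, minus strand), stood at 191, 213 and 163 cpm in sgCtrl and at 128, 113 and 113 cpm in sgN6AMT1, with means of 189 ± 25.4 and 118 ± 8.42 cpm. The sgN6AMT1 libraries lay close together and below the sgCtrl libraries, at 61.9% of the sgCtrl level in the fit (log2 fold change -0.69 ± 0.16 SE, edgeR adjusted p = 0.0118). SMC2, an ATPase core subunit of condensin (chr9:104094260-104141419, plus strand), measured 124, 148 and 137 cpm in sgCtrl and 103, 94.9 and 73.5 cpm in sgN6AMT1, with means of 136 ± 12 and 90.6 ± 15.3 cpm. Its groups did not overlap (log2 fold change -0.61 ± 0.18 SE, edgeR adjusted p = 0.0357). MKI67 was lower in 4 of the 6 fits that left out a library and SMC2 in 1. TOP2A, topoisomerase II alpha and the most abundant member by cpm in this group, had 658, 678 and 738 cpm in sgCtrl and 516, 519 and 490 cpm in sgN6AMT1, with means of 692 ± 41.4 and 509 ± 16.2 cpm. The groups were well apart, but the adjusted p of 0.05 in edgeR lay just above the threshold before rounding, at a log2 fold change of -0.44 ± 0.14 (SE). TOP2A was called lower under DESeq2, RLE factors, total counts, the newer quasi-likelihood method, the replicate block and with the mt-DNA-encoded genes left out. It was not called after the GC and length correction, with or without the block, with the other filters on low counts, with thinning or in the 6 fits that left out a library. SMC4, the partner ATPase of SMC2, was singled out after its values were seen, at 352, 410 and 356 cpm in sgCtrl and 302, 318 and 174 cpm in sgN6AMT1, with means of 373 ± 32.1 and 265 ± 79 cpm. Here the groups did not overlap, and sgN6AMT1 replicate 3 lay far below the other libraries (log2 fold change -0.5 ± 0.19 SE, edgeR adjusted p = 0.1). SMC4 was called lower with the replicate block (edgeR adjusted p = 0.0189). It was also called with the GC and length correction and the block together, and without the filter on low counts. Among the other condensin subunits, the log2 fold changes were -0.21 for NCAPD2, -0.094 for NCAPG and 0.07 for NCAPH, with edgeR adjusted p of 0.437, 0.746 and 0.839.

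Of the 6 tested spindle microtubule proteins, 1 was lower and 5 had a negative log2 fold change. HMMR, which binds microtubules and hyaluronan and helps to assemble the spindle (chr5:163460203-163491941, plus strand), measured 172, 233 and 238 cpm in sgCtrl and 132, 126 and 102 cpm in sgN6AMT1, with means of 214 ± 36.8 and 120 ± 16.1 cpm. Its groups did not overlap, and its adjusted p was the lowest of the members (log2 fold change -0.85 ± 0.17 SE, edgeR adjusted p = 0.00497). HMMR was lower in 6 of 6 fits that left out a library, with log2 fold changes between -0.99 and -0.74. TPX2, which activates AURKA on the spindle and had the largest mean level here, stood at 275, 271 and 206 cpm in sgCtrl and at 214, 240 and 185 cpm in sgN6AMT1, with means of 251 ± 38.7 and 213 ± 27.3 cpm. These groups overlapped (log2 fold change -0.23 ± 0.16 SE, edgeR adjusted p = 0.377). ASPM, a protein of spindle poles, was singled out after its values were seen, with 192, 226 and 164 cpm in sgCtrl and 161, 155 and 97.9 cpm in sgN6AMT1, with means of 194 ± 31.2 and 138 ± 35 cpm. The groups were separated by a small gap (log2 fold change -0.51 ± 0.19 SE, edgeR adjusted p = 0.0999). ASPM was called lower with the replicate block (edgeR adjusted p = 0.0258) and without the filter on low counts. The 3 cytokinesis genes held 0 called members. PRC1, which bundles midzone microtubules and had the largest mean level of the cytokinesis genes, measured 189, 194 and 164 cpm in sgCtrl and 159, 158 and 162 cpm in sgN6AMT1, with means of 182 ± 16.2 and 160 ± 1.95 cpm. Its groups did not overlap, although the gap was small (log2 fold change -0.19 ± 0.15 SE, edgeR adjusted p = 0.444).

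Each gene was set against its own sgCtrl mean on the log2 scale, and the median over the members was -0.036, 0.062 and 0.011 in sgCtrl and -0.0066, -0.11 and -0.15 in sgN6AMT1. The medians overlapped, since sgN6AMT1 replicate 1 lay above sgCtrl replicate 1. Together the members took 0.838% (95% Wilson interval 0.817 to 0.859), 0.907% (0.888 to 0.928) and 0.863% (0.844 to 0.883) of all counts in sgCtrl. In sgN6AMT1 they took 0.816% (0.798 to 0.834), 0.801% (0.793 to 0.808) and 0.733% (0.725 to 0.741), below each sgCtrl library. These intervals cover counting error only. Of the 53 members, 19 had their lowest level in sgN6AMT1 replicate 3 and 12 in sgCtrl replicate 1. Among the 7 lower genes the lowest library was sgN6AMT1 replicate 3 for 6 and sgN6AMT1 replicate 2 for 1. Per kilobase of transcript, the level in sgCtrl ran from 9.96 cpm for ESPL1 (separase) to 253 cpm for PTTG1. CDK1 (155 cpm per kilobase) and CCNB1 (154 cpm per kilobase) followed PTTG1, and they differed from each other by less than the spread between the sgCtrl libraries of either gene.

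**Figure D3:**
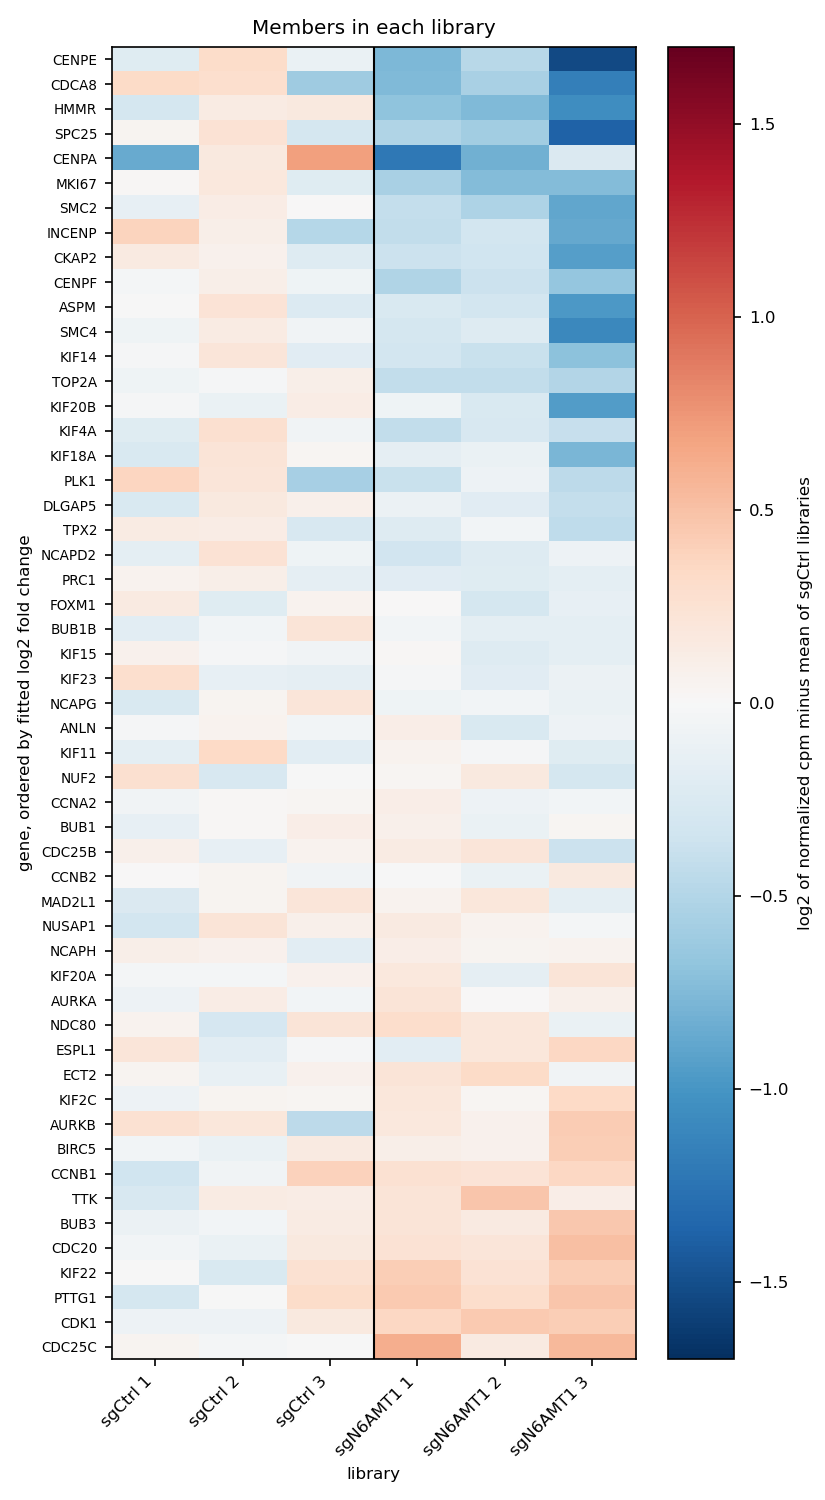
Log2 of the TMM-normalized cpm of each tested member (rows, ordered by fitted log2 fold change) in each of the 6 libraries (columns), minus the mean over the sgCtrl libraries of that gene, with blue for lower and red for higher. Most rows at the top are blue in the sgN6AMT1 columns, and 19 of the 53 members had their lowest level in sgN6AMT1 replicate 3, though not CENPA or MKI67, and the rows at the bottom, from CDC25C upward, are red.

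The members had a lower GC content than the genes tested in all, with a median of 41.9% against 47.1%, and across genes the fold changes moved with transcript GC content and length. Spearman's rho of the log2 fold change with GC content was 0.24 over the 53 members and 0.26 over 8158 tested genes with a value, and with length it was -0.41 and -0.19. These are correlations across genes in the same 6 libraries, which are not independent replicates. The 27 members with transcripts of at most 3473 nt had a median log2 fold change of 0.035 and held 3 of the lower genes, while the 26 longer ones had a median of -0.19 and held 4. Over the 8158 tested genes with a value, the medians on the same sides of that length were 0.077 and -0.069, with 4.12% and 5.39% called lower. The 27 members with at most 41.94% GC had a median of -0.14 and held 5 of the lower genes. The 26 members above that GC content had a median of 0.0074 and held 2. Among the tested genes with a value, the medians on those sides were -0.12 and 0.068, with 5.45% and 4.43% called lower. With the trend on GC content and length removed from each library, 5 members (9.43%) were lower, which were CDCA8, CENPE, SPC25, MKI67 and HMMR, against 5.72% of all genes tested. In that fit 1 member (1.89%), CDK1, was higher, against 5.31% of all genes tested, with a log2 fold change of 0.54 and an edgeR adjusted p of 0.0158. CENPF and SMC2 were no longer called (log2 fold changes -0.35 and -0.42, edgeR adjusted p of 0.0738 and 0.0734). The median log2 fold change of the members was then -0.0095, and that of all genes tested 0.019. By role, the median moved from -0.44 to -0.28 for condensin and mitotic chromosomes, with 1 lower member in place of 2, and from -0.64 to -0.5 for the centromere and outer kinetochore, with 2 in place of 3. It moved from -0.38 to -0.26 for the spindle microtubule proteins and from -0.18 to -0.31 for the passenger complex, each with 1 lower member as before. Among groups with 0 lower members in either fit, it moved from 0.33 to 0.15 for the anaphase genes, from -0.13 to -0.017 for the kinesins and from -0.093 to 0.047 for the cytokinesis genes. It moved from 0.018 to 0.057 for the cyclins, kinases and entry genes and from 0.027 to 0.19 for the checkpoint genes. The cytokinesis median changed sign. For single genes without a call in either fit, the log2 fold change moved from 0.33 to 0.15 for CDC20, from 0.21 to 0.13 for BIRC5, from 0.21 to 0.027 for AURKB and from 0.28 to 0.44 for BUB3. It moved from -0.44 to -0.28 for TOP2A, from -0.48 to -0.29 for KIF14 and from -0.51 to -0.31 for ASPM. For other members the log2 fold change moved further below 0, such as PLK1 (-0.33 to -0.48), INCENP (-0.56 to -0.66) and FOXM1 (-0.16 to -0.27). It moved from 0.35 to 0.18 for KIF22, from 0.11 to 0.18 for NDC80 and from 0.07 to 0.15 for NCAPH.

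**Figure D4:**
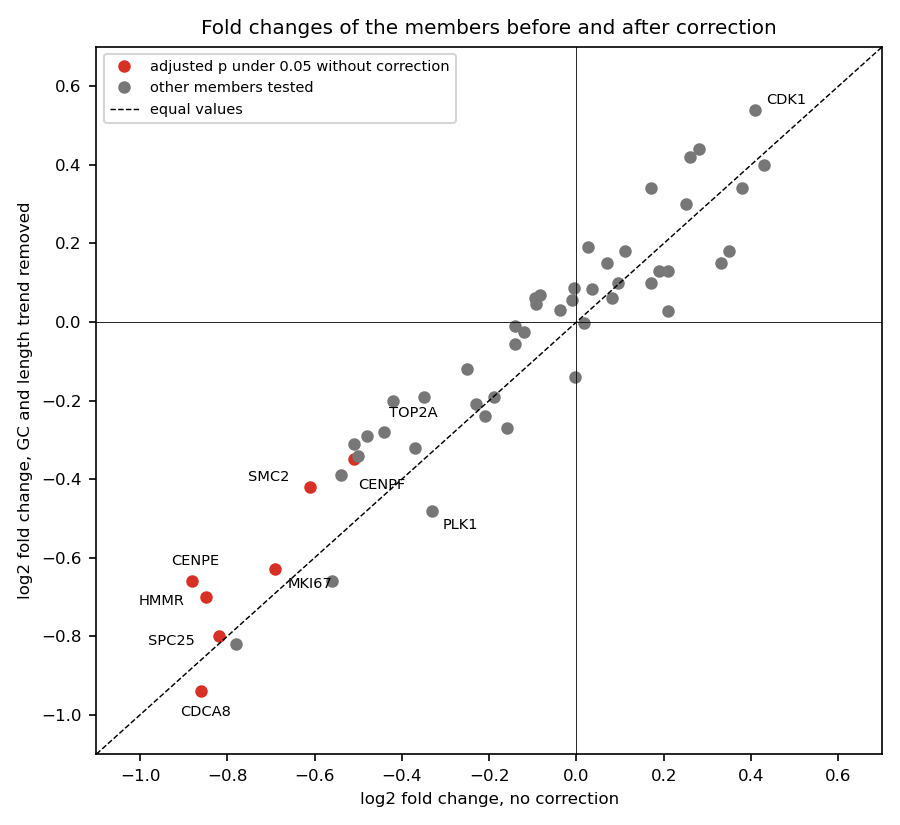
Log2 fold change of each tested member without correction (horizontal axis) and with the trend on transcript GC content and length removed (vertical axis), with the 7 lower genes in red and a dashed line of equal values. CENPE, HMMR, SMC2, MKI67 and CENPF lie above the line, CDCA8 lies below it at -0.94 after correction, and CDK1 lies highest at 0.54.

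Other measures moved with the conditions. Genes encoded by mt-DNA took 5.26% (95% Wilson interval 5.21 to 5.31), 4.38% (4.34 to 4.43) and 3.21% (3.17 to 3.24) of counts in sgCtrl and 1.92% (1.89 to 1.95), 0.816% (0.809 to 0.824) and 0.461% (0.455 to 0.468) in sgN6AMT1. With these genes left out of the counts, the 7 members were lower again, together with TOP2A, while 410 of 8317 genes were lower in all. The 10 erythroid markers summed to 11600, 12100 and 18500 cpm in sgCtrl and to 18800, 24400 and 34100 cpm in sgN6AMT1, higher in the latter, and their part in the members' values was not tested. With sgN6AMT1 replicates 2 and 3 thinned to 858710 counts, the 7 members were lower, and 296 of 8217 genes were lower in all. Of the 54 members with a row, 19 have a gene span that overlaps a gene on the opposite strand, among them HMMR (HMMR-AS1), SPC25 (G6PC2 and NOSTRIN) and SMC4 (IFT80 and TRIM59). Whether strand was used in counting is not given in the sources used here, so reads of such pairs may not have been kept apart.

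Genes that work beside the members were read from 7 further lists of mitosis, in which 11 of 148 tested genes (7.43%) were lower and 0 were higher, against 4.76% and 5.09% of all genes tested, with a median log2 fold change of -0.076. No list was tested against that background. In the anaphase-promoting complex, 3 of 18 genes were lower, namely ANAPC15 (log2 fold change -0.99), CDC16 (-0.75) and CDC26 (-0.84), all subunits of the complex. Among 17 genes of cohesin, condensin II and their regulators, SMC1A (-0.6), a core cohesin subunit, and PDS5B (-0.98), which binds cohesin, were lower. Of 30 tested genes of the spindle, centrosome and midbody, TACC3 (-0.61), which stabilizes kinetochore fibres, and PCNT (-0.64), a scaffold of the centrosome, were lower. SKA3 (-0.83), part of a complex that holds kinetochores on microtubules, was the lower gene of 36 other centromere and kinetochore genes. PPP2R2A (-1.01), a B subunit of the PP2A phosphatase that opposes CDK1, was the lower gene of 16 regulators of mitotic entry. HMGB2 (-0.63), a chromatin protein, was the lower gene of 17 other genes whose mRNA peaks in G2 and M. NFYA (-1.21), the subunit of NF-Y that contacts CCAAT, was the lower gene of 14 tested regulators of this program, at 44.3, 16.2 and 29.5 cpm in sgCtrl and 17.9, 13.7 and 9.26 cpm in sgN6AMT1. Its groups overlapped at a low level (edgeR adjusted p = 0.0417).

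Genes of DNA replication and of the G1/S transition, which peak earlier in the cycle, gave a count of 4 lower and 0 higher among 53 tested (7.55% lower, against 4.76% of all genes tested), with a median log2 fold change of -0.054. The lower genes were TYMS, thymidylate synthase (log2 fold change -0.86, edgeR adjusted p = 0.00642), UHRF1, a reader of hemimethylated DNA (-0.95), CCNE1, cyclin E1 (-0.82), and CHAF1B, a histone chaperone subunit (-0.76). By overlap of libraries, 13 of these 53 genes (24.5%) had each sgN6AMT1 library below each sgCtrl library and 3 had the reverse, against 14.1% and 15.1% of all genes tested. The 53 mitosis and G2/M genes gave 13 and 4. A difference between the lists was not tested. Of 7 tested CDK inhibitors and D or G cyclins, 0 were called. With the GC and length correction 1 of the 7 was higher, against 5.31% of all genes tested. Their median log2 fold change then moved from 0.15 to 0.27. CDKN1A, which encodes the CDK inhibitor p21, stood at 4.03, 6.92 and 0 cpm in sgCtrl and at 5.27, 4.02 and 5.4 cpm in sgN6AMT1, too low to be tested.

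The promoters of these genes bear letters that the list did not use. CCAAT is the core that NF-Y binds, and the cell cycle genes homology region (CHR), TTTGAA or TTCGAA, is bound by MuvB. RefSeq promoters (GRCh38.p14, 250 bases before to 50 after a start) were found for 48 of the 55 members. On either strand, CCAAT stood in at least 1 promoter of 37 members (77.1%), against 42.1% of 15843 protein-coding genes and 44.2% of the 6497 tested genes with a promoter. The CHR letters stood in 38 members (79.2%), against 17.5% and 15.6%. Both stood in the same promoter of 30 members (62.5%), against 7.28% and 6.86%. The CHR letters stood in 6 of the 7 lower genes and in 32 of the other 40 tested members with a promoter, and CCAAT in 5 of 7 and 31 of 40. CENPE, the gene with the lowest log2 fold change, had neither in its window.

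The promoters of 3 lower genes and of CDC20, which was not lower, are shown from 140 bases before to 30 after the start, since both the lower and the other genes carry the letters. Each promoter shown holds both kinds of letters, so they do not stand for the members as a whole. CENPE, which is lower and has neither, is not shown. Capitals mark CCAAT or its reverse complement ATTGG and the CHR letters, and in MKI67 and CDCA8 a CHR and an ATTGG share bases. The windows are chr5:163460492-163460661 (plus strand) for HMMR, chr10:128126394-128126563 (minus strand) for MKI67, chr1:37692376-37692545 (plus strand) for CDCA8 and chr1:43358841-43359010 (plus strand) for CDC20.
HMMR: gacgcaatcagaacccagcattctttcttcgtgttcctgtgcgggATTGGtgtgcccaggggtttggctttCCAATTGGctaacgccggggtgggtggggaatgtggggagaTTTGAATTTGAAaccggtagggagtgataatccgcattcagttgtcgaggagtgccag
MKI67: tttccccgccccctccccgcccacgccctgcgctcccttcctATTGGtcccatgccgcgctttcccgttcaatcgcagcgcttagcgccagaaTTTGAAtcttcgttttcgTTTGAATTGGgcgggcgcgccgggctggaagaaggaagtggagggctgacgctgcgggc
CDCA8: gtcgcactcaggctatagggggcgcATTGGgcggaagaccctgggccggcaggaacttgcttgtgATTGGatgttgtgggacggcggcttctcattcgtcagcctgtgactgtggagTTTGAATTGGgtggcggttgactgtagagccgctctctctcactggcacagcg
CDC20: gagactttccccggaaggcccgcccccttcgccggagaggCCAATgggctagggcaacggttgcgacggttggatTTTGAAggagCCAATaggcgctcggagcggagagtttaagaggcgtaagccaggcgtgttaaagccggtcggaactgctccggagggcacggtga
In these windows HMMR holds 3 CCAAT matches and 2 CHR matches, MKI67 holds 2 and 2, CDCA8 holds 3 and 1, and CDC20 holds 2 and 1. A match is a description of the letters and not a measured binding site.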

How the data were processed

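RNA-Seq was analysed in 6 K562 libraries, 3 sgCtrl and 3 sgN6AMT1, grouped and numbered by their labels. The authors trimmed reads with cutadapt, mapped them with HISAT2 to GRCh38 and deposited raw counts per gene symbol, without normalization. The counting tool, its strand setting and the treatment of reads with several positions are not given in the sources used here. The replicates are separate transductions, so p-values measure the spread between transductions of 1 cell line.

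From the deposited counts, genes passing filterByExpr (8324) were scaled by TMM. The conditions were compared by the quasi-likelihood test of edgeR 4.0.16 under R 4.3.3 (glmQLFTest), with no covariate. P-values were adjusted by Benjamini-Hochberg over all genes tested, with a threshold of 0.05. The common biological coefficient of variation was 0.16. Pairs of libraries within a condition differed beyond sampling noise (chi-square per degree of freedom 2.04 to 11.9). The code was tested on simulated data.

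The members, role groups and related lists were chosen with earlier results of these data known, so lists are described by counts and medians without a test. Named in full are the called members and, per role group, the member of largest mean level. From each related list the called genes are named. Others are said to be chosen after their values were seen. Exceptions are CDKN1A and members given without a value in each library, with or without an adjusted p. These were also so chosen. Positions, GC content and length come from GENCODE v44 (GRCh38), with values for 98% of the genes tested, and promoters from RefSeq.

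Alternatives were DESeq2 1.42.0, RLE factors, total counts, no filter on low counts or a minimum of 10 in each library, a replicate block, the mt-DNA-encoded genes left out, correction for GC content and length (mgcv 1.9.3) with and without the block, thinning, the newer quasi-likelihood method, an adjusted p under 0.01, and leaving out each library.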

Additional observations from a re-analysis of the deposited data

How the results depend on the processing

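The count of 0 higher members became 1 (CDK1) with the GC and length correction, 1 (CDK1) with the replicate block and 2 (CDK1 and BUB3) with both, where 442, 587 and 670 of 8324 genes were higher in place of 424. The count of 7 lower members became 11 with the replicate block, where 608 of 8324 genes were lower in place of 396. The block added KIF14, SMC4, TOP2A and ASPM. With the correction and the block the count became 10, adding PLK1, INCENP and SMC4 (715 of 8324 genes). Without the filter it became 9, adding SMC4 and ASPM (573 of 13874). It was 8 with RLE factors (425 of 8324), total counts (404 of 8324) or the newer method (405 of 8324). At an adjusted p under 0.01 it was 1, and the count over all genes at that threshold is not given here. The count ranged from 1 to 6 when 1 library was left out. The median log2 fold change of -0.094 became -0.0095 with the correction, -0.0013 with the correction and the block and -0.044 with thinning, and ranged from -0.16 to -0.083 when 1 library was left out. Deviations of same-numbered libraries correlated at -0.000522, 0.0827 and 0.19, so the numbers were not taken to pair the samples. Without the filter the median over all genes tested was 0.12. Each of the 7 lower members was lower under DESeq2, RLE factors, total counts, both filters, thinning, the newer method, the replicate block and the fit without mt-DNA-encoded genes. Log2 fold changes near 0 changed sign. This was so with the correction (CCNA2 0.057, CCNB2 -0.0014, BUB1 0.087, NUF2 0.03, KIF11 0.069, NCAPG 0.06, ANLN 0.047), with the correction and the block (CCNA2 0.055, CCNB2 -0.0018, BUB1 0.082, NUF2 0.058, KIF11 0.068, KIF23 0.0034, NCAPG 0.057, ANLN 0.044), with at least 10 counts (CCNA2 0.017, CDC25B 0.023, BUB1 0.02), with thinning (CCNA2 0.071, CDC25B 0.05, BUB1 0.032, NUF2 0.059), with DESeq2 (CCNB2 -0.005) and with total counts (CCNB2 -0.0029). When 1 library was left out, these log2 fold changes crossed 0: CCNA2 -0.069 to 0.038, CCNB2 -0.067 to 0.089, CDC25B -0.15 to 0.18, BUB1 -0.075 to 0.057, MAD2L1 -0.089 to 0.13, NUF2 -0.17 to 0.1, NDC80 -0.025 to 0.23, KIF11 -0.18 to 0.11, KIF20A -0.015 to 0.21, KIF23 -0.2 to 0.027, NCAPG -0.22 to 0.014, NCAPH -0.018 to 0.12, NUSAP1 -0.1 to 0.14, ANLN -0.18 to 0.0068. The causes were not tested. Depth limits the precision of members with low counts, such as CENPA, with 8 to 64 counts. UBE2C had 0 counts in the deepest library too, and the cause was not tested.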
